A study of Mus musculus with 6 samples.

Results

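The Wnt ligands, their receptors and their modulators were compared between the mouse pancreas before birth and the adult islet. Members were taken by symbol, and the members were chosen with earlier results of these data known. Of the 37761 genes in the deposited table, 56 match the families Wnt, Fzd, Sfrp, Dkk (1 to 4), Rspo, Lgr (4 to 6), Axin and Tcf/Lef, or are Lrp5, Lrp6, Znrf3, Rnf43, Wif1, Porcn or Ctnnb1. By role, 19 are ligands or make them, 12 are receptors, 9 are secreted inhibitors, 9 belong to the R-spondin branch and 7 act in the cytoplasm and nucleus. RNA sequencing covered 6 wild-type libraries, 3 of the whole organ taken at e15.5 (in days of embryonic life) and 3 of islets freed with collagenase from the pancreas of mice aged 12 weeks. Strain, sex and any pooling of animals were not given in the sources used here, so p-values measure the spread between libraries, which may be technical. Organ part, age and isolation all change from one group to the other, so their effects cannot be told apart. In bulk RNA, fewer cells of a type and less RNA per cell cannot be told apart either.

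Wnt proteins are lipid-modified secreted signals. In the canonical branch they bind a Frizzled receptor with Lrp5 or Lrp6, which halts the destruction complex built on Axin, so that beta-catenin (Ctnnb1) accumulates and acts on Tcf/Lef factors in the nucleus. R-spondins bind Lgr receptors and remove the ubiquitin ligases Znrf3 and Rnf43, which otherwise clear Frizzled from the cell surface. Sfrp and Wif1 proteins bind Wnts outside the cell, and Dkk1, Dkk2 and Dkk4 bind Lrp5 and Lrp6. In the developing pancreas the pathway is known for its part in the growth of the epithelium and the exchange between epithelium and mesenchyme.

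Each library had between 35059950 and 47346870 reads in genes. A read stood for 0.818 to 1.10 normalized counts, so that a normalized count of 1 rested on about 1 read. Reads not assigned to a gene made up 40.7 to 54.6% of a library, and the third embryonic library listed none as too low in alignment quality while the others listed 1.89 to 2.50%. The labels were checked against cell type markers, given as shares of assigned reads. The 10 beta cell markers together took 0.0200 to 0.0306% in the embryonic libraries against 8.45 to 9.63% in the islets, and all 10 were higher in the islets. The 13 mesenchyme markers took 0.442 to 0.570% in the embryonic libraries against 0.00379 to 0.00768% in the islets, with 11 lower, 1 higher (Meox1) and 1 not tested, and with Nkx2-5 and Tbx18 at 0 in every islet library. Of 7 mesothelium markers 5 were lower, 1 was higher and 1 was not called. The 12 acinar markers took 0.414 to 0.491% in the embryonic libraries against 0.469 to 1.25% in the islets, highest in the second islet library.

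Most Wnt pathway members were lower in the adult islets, and Wnt4, Sfrp5 and Rspo4, each of a different family, were far higher. Of the 56 members, 43 had at least 10 normalized counts (reads divided by a size factor per library) in at least 3 libraries and were tested; 6 were higher in the islets, 33 were lower and 4 were not called at an adjusted p under 0.05 (limma, Benjamini-Hochberg over all genes). Over the 21653 genes tested, 72.8% were called, 36.2% higher and 36.6% lower. The median log2 fold change was −1.60 over the tested members and −0.03 over all genes tested, and it is the same with Fzd10, which is 0 in the islets, at its bound. Past 2-fold, 4 members were higher and 27 lower, against 22.6% and 25.5% of all genes. Values of the groups did not overlap for 42 of the 43 tested members, against 77.1% of all genes. Of the tested members 5 had passed the filter through the embryonic libraries alone (Fzd2, Fzd10, Rspo1, Rspo3 and Wnt7a) and 1 through the islets alone (Wif1). These had to differ, so their p-values are not evidence apart from the filter. In the authors' deposited table, which calls 53.3% of its 30597 genes with an adjusted p, 5 of 53 members were higher and 33 lower, and 37 of the 39 calls made here stood there in the same direction. The members together took 0.234% ± 0.0109 (SD, n = 3) of assigned reads in embryonic pancreas and 0.104% ± 0.000689 (n = 3) in islets. These shares were not divided by length, and they also depend on how many reads other genes took, such as the beta cell markers. The members of the cytoplasm and nucleus, Ctnnb1 among them, took 0.104% in embryonic pancreas and 0.0527% in islets. The shares of beta cell and mesenchyme markers given above moved with the groups, and their part in these calls was not tested.

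**Figure D1:**
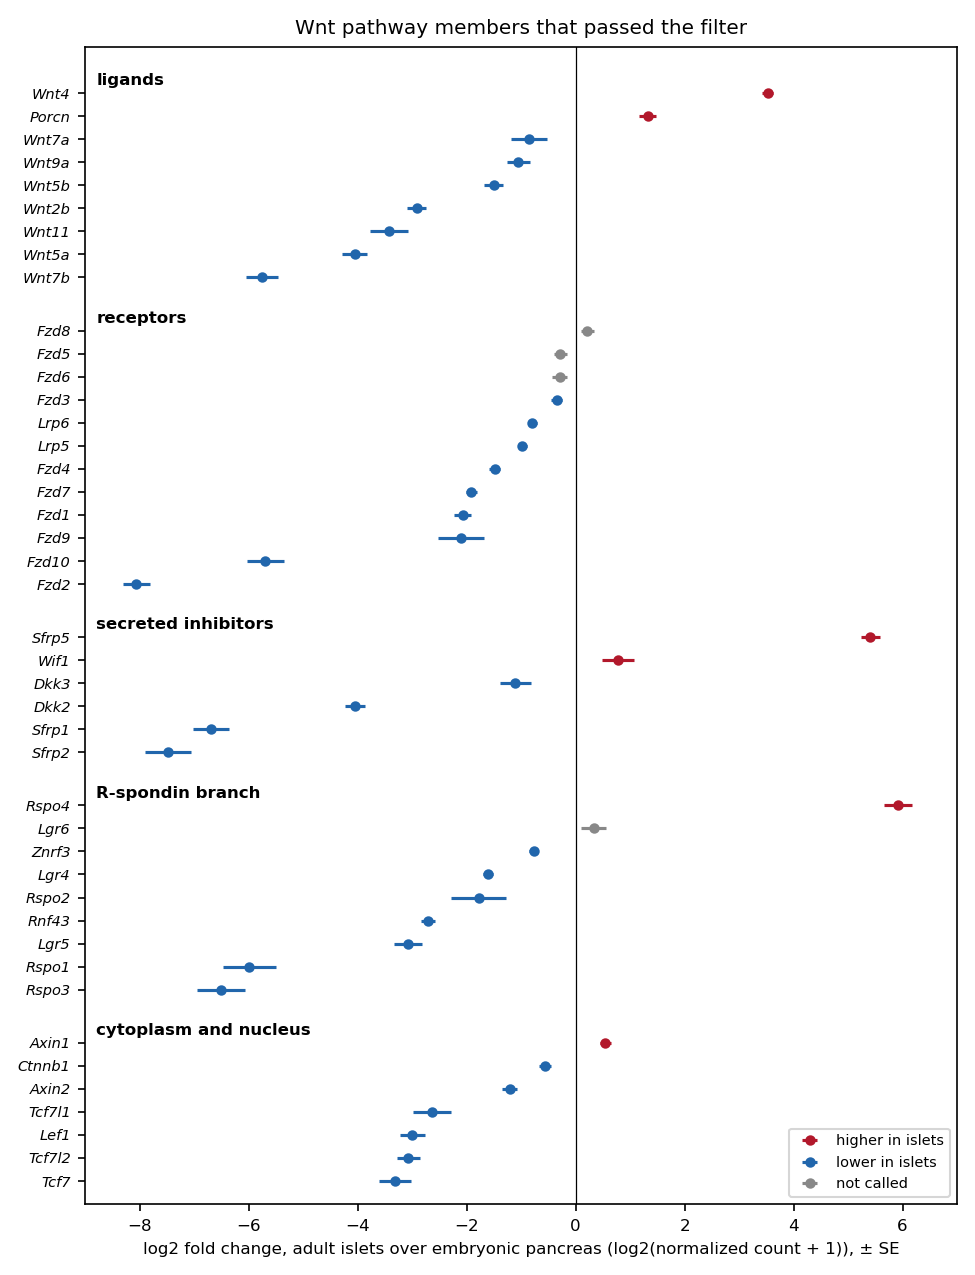
Log2 fold change (adult islets over embryonic pancreas, on the scale of log2 of the normalized count plus 1) with its standard error for the 43 members tested, grouped by role. Red points are called higher, blue lower and grey not called; Rspo4, Sfrp5 and Wnt4 lie far to the right, and the 33 blue points lie to the left of 0.

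Among the ligands, Wnt4 rose while 7 other Wnts fell, against 36.2% higher and 36.6% lower among all genes tested. The other 10 Wnts stayed under the filter. Wnt4, a ligand known for its part in kidney tubule and ovary development (chr4:137277489-137299726 on GRCm38), had 336, 317 and 348 normalized counts in the embryonic libraries against 3593, 3658 and 4323 in the islets. Every islet library lay above every embryonic one, a mean 11.6-fold higher with a log2 fold change of 3.52 (SE 0.10, adjusted p = 1.7e-08, limma). Porcn, the enzyme of the endoplasmic reticulum that attaches the lipid to Wnts, had 99.9, 107 and 116 normalized counts in the embryonic libraries against 289, 279 and 248 in the islets. Porcn was thus higher without overlap, with a log2 fold change of 1.33 (SE 0.15, adjusted p = 5.4e-05, limma).

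The steepest fall among ligands was that of Wnt7b, a ligand of embryonic epithelia such as that of the lung (chr15:85535437-85582473). Wnt7b had 543, 696 and 599 normalized counts in the embryonic libraries against 12.1, 13.9 and 6.44 in the islets. Its mean was 56.7-fold lower in the islets (log2 fold change −5.75, SE 0.29, adjusted p = 2.6e-07, limma). Of its exon bases 6.61% lie opposite the antisense gene AU022754, which has its own entry in the table and went from 73.6 ± 10.2 to 0 normalized counts; the labels do not say that the kit kept strand, so reads of such pairs cannot be told apart. Wnt5a, the best known ligand of the branches that do not use beta-catenin (chr14:28504750-28527448), had 1076, 1359 and 1106 normalized counts in the embryonic libraries against 94.5, 70.4 and 50.4 in the islets. Wnt5a was 16.4-fold lower in the islets (log2 fold change −4.06, SE 0.22, adjusted p = 4.6e-07, limma). Wnt11, which acts with Wnt5a in cell movements of the early embryo, had 101, 117 and 109.6 normalized counts in the embryonic libraries against 14.3, 9.92 and 5.36 in the islets, a log2 fold change of −3.43 (SE 0.35, adjusted p = 2.3e-05, limma). For Wnt5a and Wnt11 the first islet library was the highest of the islets and the third the lowest, and no islet library reached an embryonic one. The mesenchyme marker share had the same highest and lowest islet library, 0.00768% and 0.00379%. Among embryonic libraries Wnt5a and Wnt11 were highest in the second, where that share was lowest. The part of the share in these falls was not tested.

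The other Wnts that were called fell by less. Wnt2b went from 535 ± 50.8 to 70.5 ± 11.5 normalized counts (n = 3 each), a log2 fold change of −2.91. Wnt5b went from 330.3 ± 33.0 to 116 ± 17.1 and Wnt9a from 200.3 ± 19.6 to 98.3 ± 27.4, log2 fold changes of −1.51 and −1.05. Wnt7a was low in both groups, 11.5, 15.7 and 17.2 normalized counts in the embryonic libraries against 7.69, 5.95 and 9.66 in the islets. It passed the filter through the embryonic libraries alone. Its fall (log2 fold change −0.85, adjusted p = 0.043, limma) was lost under 10 of the 15 alternatives that gave it a value, 4 of the losses coming with the second or the third embryonic or the first or the second islet library left out (adjusted p from 0.070 to 0.135).

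The remaining 10 Wnts (Wnt2, Wnt3, Wnt3a, Wnt6, Wnt8a, Wnt8b, Wnt9b, Wnt10a, Wnt10b and Wnt16) stayed under the filter and were not tested. The highest value of any of them was 14.6 normalized counts, that of Wnt9b in the second embryonic library, and in the islets it was 6.59, that of Wnt2. Wnt3a and Wnt8a had 1 read each in the embryonic libraries and 0 in the islets, which allows up to 3 reads over the islet libraries. Wnt6 had 23 reads in the embryonic libraries and 1 in the islets, a ratio of 20.4 with an exact 95% counting interval from 3.33 to 845, which covers counting error only. Wnt6 was called lower in the authors' deposited table (log2 fold change −4.30, adjusted p = 0.019, DESeq2). Several of them lie in pairs in the genome: Wnt6 and Wnt10a 6.193 kb apart on chromosome 1, Wnt9b and Wnt3 24.328 kb apart on chromosome 11, and Wnt3a 16.175 kb from Wnt9a on the same chromosome. Of these paired genes Wnt9a alone passed the filter.

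Levels of different genes were compared per kilobase of exon, as normalized counts per kb. In the embryonic pancreas the top of the Wnt family was shared: Wnt5a was at 151 ± 19.9, Wnt2b at 127 ± 12.1, Wnt7b at 125 ± 15.8 and Wnt5b at 124 ± 12.4 (SD, n = 3). Wnt5a was above the other 3 in every embryonic library, while Wnt2b, Wnt7b and Wnt5b lay within their spread of each other. Wnt4 was the fifth, at 79.6 ± 3.65, followed by Wnt9a at 60.2 ± 5.87 and Wnt11 at 26.4 ± 1.94. In the islets Wnt4 stood at 919.9 ± 96.3, far above Wnt5b at 43.8 ± 6.44 and Wnt9a at 29.5 ± 8.24. Wnt4 thus made up 12.1, 9.68 and 11.8% of the summed Wnt level in the embryonic libraries against 88.9, 87.8 and 90.6% in the islets. The share of Wnt5a went from 21.0% ± 1.10 to 0.908% ± 0.343 and that of Wnt7b from 17.4% ± 0.705 to 0.219% ± 0.0907. A share within a family does not depend on how a library is scaled; each of these shares had a two-sided exact permutation p of 0.1, the smallest that 3 against 3 libraries allow, and over the 53 shares computed the smallest adjusted p was 0.133.

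The summed level of the 18 Wnts depended on the scale. As normalized counts per kb it was 715 ± 61.3 in embryonic pancreas and 1032 ± 93.0 in islets, 1.44-fold higher, without overlap (exact permutation p = 0.1). As reads per kb and 1000000 assigned reads, it was 20.6 ± 1.05 and 21.8 ± 1.35, a ratio of 1.06 (exact permutation p = 0.4). Both scales were set side by side after the values had been seen.

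**Figure D2:**
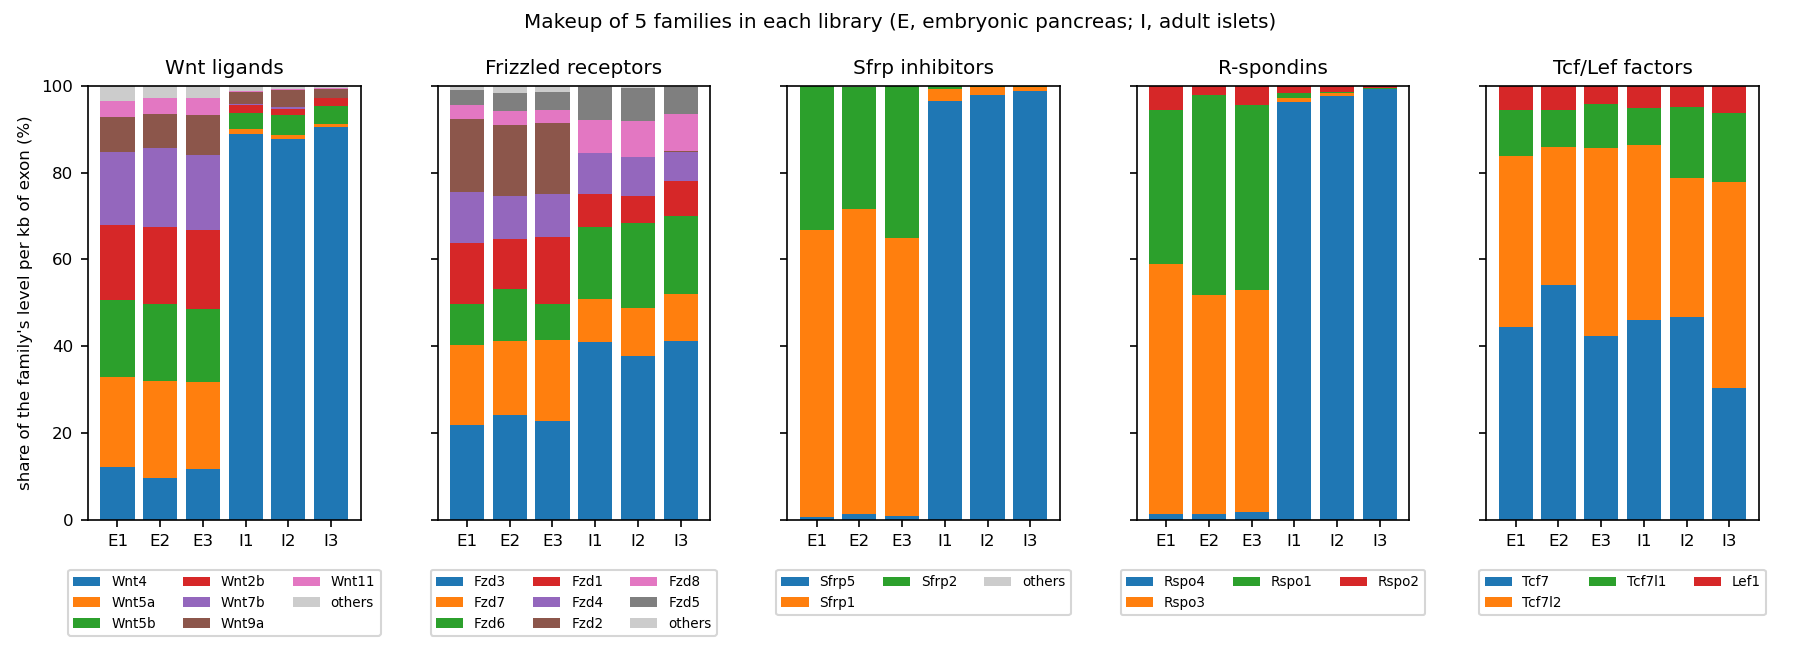
Share of each member in the summed level per kb of exon of its family (%), 1 bar per library (E1 to E3 embryonic pancreas, I1 to I3 adult islets), for 5 families. Wnt4, Sfrp5 and Rspo4 fill 87.8% or more of their family's bar in each islet library, while the Tcf/Lef bars are of like makeup in both groups.

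Of the 12 receptors none rose and 9 fell, while 36.2% of all genes tested were higher and 36.6% lower. Fzd2, a receptor of the same subfamily as Fzd1 and Fzd7 (chr11:102604396-102608058), had 1429, 1429 and 1481 normalized counts in the embryonic libraries against 6.59, 3.97 and 3.22 in the islets. The islet values rest on 13 reads against 4669 in the embryonic libraries, a 315-fold lower mean (log2 fold change −8.06, SE 0.25, adjusted p = 2.2e-08, limma). Fzd2 passed the filter through the embryonic libraries alone, so its groups had to differ. Its 2 relatives fell far less. Fzd1 had 1363, 1159 and 1583 normalized counts in the embryonic libraries against 317, 277 and 378 in the islets, a log2 fold change of −2.08 (SE 0.15, adjusted p = 2.9e-06, limma). Fzd7 had 1925, 1831 and 2080.2 in the embryonic libraries against 458, 538 and 550.4 in the islets, a log2 fold change of −1.92 (SE 0.10, adjusted p = 4.4e-07, limma). For neither gene did the groups overlap.

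Fzd10 had 38.4, 49.0 and 69.5 normalized counts in the embryonic libraries and 0 reads in all islet libraries. Against the 3 reads that a count of 0 allows over the islet group, it was at least 49.6-fold lower. Fzd4, the receptor that also binds the ligand norrin, went from 1692 ± 95.8 to 605 ± 70.2 and Fzd9 from 35.6 ± 14.3 to 7.59 ± 3.74, log2 fold changes of −1.49 and −2.10. Fzd3, known for its part in axon guidance, had the highest level per kb of the family in both groups. Fzd3 had 6420.2, 7383 and 7223 normalized counts in the embryonic libraries against 5329, 5195 and 5966 in the islets, with a log2 fold change of −0.35 (SE 0.09, adjusted p = 8.2e-03, limma).

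For Fzd5, Fzd6 and Fzd8 no difference passed the test. Fzd5 was at 645 ± 72.9 in embryonic pancreas and 529.6 ± 37.2 in the islets (log2 fold change −0.28, adjusted p = 0.062, limma), and 17.8% of its exon bases lie opposite another entry, Gm38058. Fzd6 was at 1149 ± 199.7 and 934 ± 108 (log2 fold change −0.29, adjusted p = 0.090, limma). Fzd8 was at 446 ± 13.1 and 521 ± 65.7 (log2 fold change 0.22, adjusted p = 0.14, limma). It was the only tested member whose groups overlapped, and its log2 fold change was −0.019 when libraries were scaled without their most abundant genes. Both co-receptors were lower. Lrp6 had 8321, 7435 and 8125 normalized counts in the embryonic libraries against 4347, 4530.5 and 4862 in the islets, a log2 fold change of −0.80 (SE 0.09, adjusted p = 3.3e-05, limma). Lrp5, which is also known for its part in bone mass, went from 2275 ± 62.7 to 1157 ± 56.4, a log2 fold change of −0.98. Of the co-receptor level per kb, Lrp6 made up 71.3% ± 1.11 in embryonic pancreas and 73.8% ± 1.26 in the islets.

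Within the Frizzled family the shares of Fzd3, Fzd5, Fzd6 and Fzd8 were larger in the islets and those of Fzd1, Fzd2, Fzd4, Fzd7 and Fzd10 were smaller, without overlap, while Fzd9 overlapped. Fzd3 took 22.9% ± 1.21 of the summed level per kb in embryonic pancreas and 40.0% ± 1.92 in the islets, and Fzd8 took 3.13% ± 0.0736 and 8.11% ± 0.617. Fzd6 took 9.55, 11.99 and 8.48% in the embryonic libraries against 16.6, 19.5 and 18.01% in the islets, and Fzd5 went from 3.90% ± 0.340 to 7.17% ± 0.797. Fzd2 went from 16.5% ± 0.343 to 0.119% ± 0.0521, Fzd7 from 17.98% ± 0.899 to 10.6% ± 0.573 and Fzd1 from 13.6% ± 1.87 to 7.19% ± 0.941. The summed Frizzled level per kb was 2388 ± 85.9 normalized counts in embryonic pancreas and 1072 ± 57.2 in islets, 2.23-fold lower (exact permutation p = 0.1, the smallest possible).

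**Figure D3:**
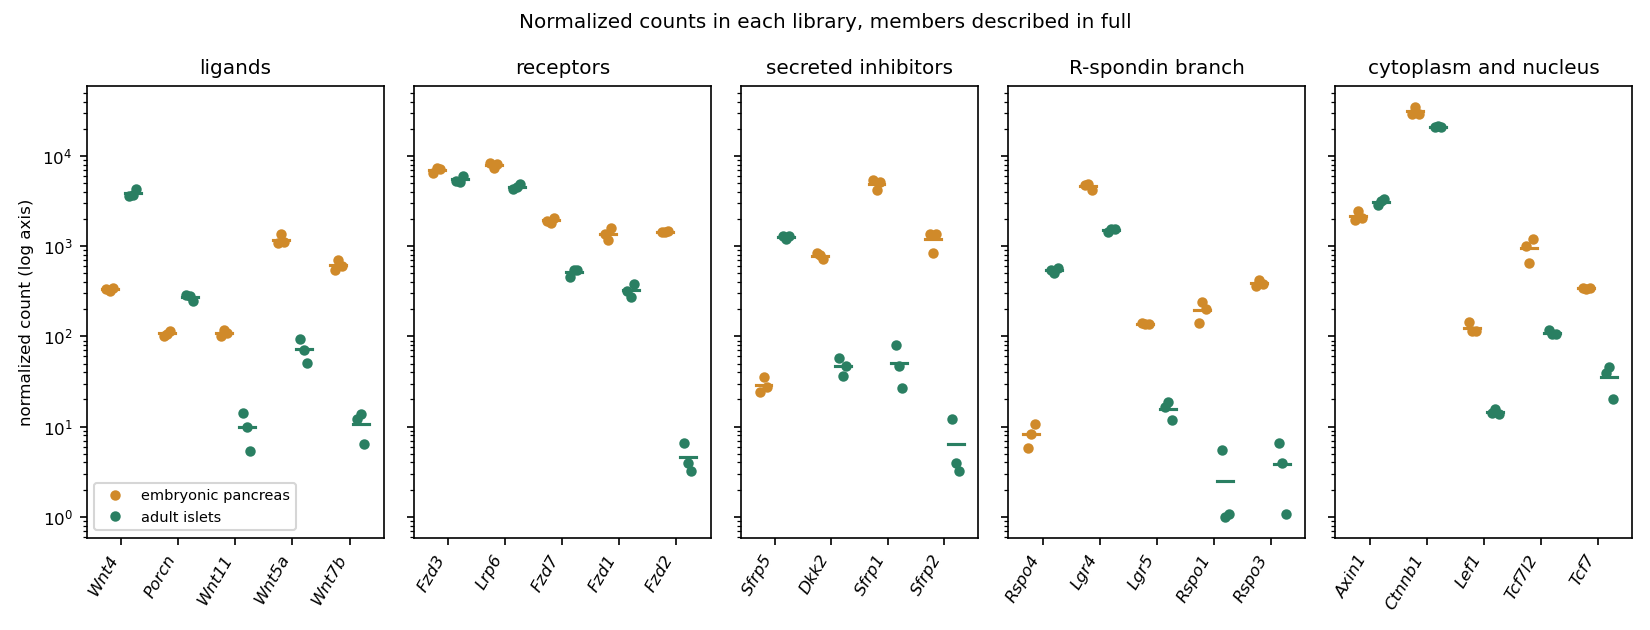
Normalized counts (log axis) in each of the 6 libraries for the members described in full, by role; points are libraries, short lines group means (n = 3). Islet values lie above the embryonic ones for Wnt4, Porcn, Sfrp5, Rspo4 and Axin1 and below them for the other genes drawn, with no overlap.

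Of the secreted inhibitors, Sfrp5 rose while Sfrp1 and Sfrp2 fell, each by a wide margin. Sfrp proteins bind Wnts through a domain like the one that Frizzled receptors use. Sfrp5 (chr19:42197971-42202252) had 24.0, 35.5 and 27.8 normalized counts in the embryonic libraries against 1304, 1204 and 1287 in the islets. Its mean was 43.5-fold higher in the islets (log2 fold change 5.41, SE 0.17, adjusted p = 2.6e-08, limma). Sfrp1 (chr8:23411502-23449632) went the other way, with 5483, 4243 and 5119.5 normalized counts in the embryonic libraries against 80.2, 46.6 and 26.8 in the islets. Sfrp1 was 96.6-fold lower in the islets (log2 fold change −6.69, SE 0.33, adjusted p = 2.4e-07, limma). Sfrp2 (chr3:83766321-83774316) had 1353, 843 and 1376 normalized counts in the embryonic libraries against 12.1, 3.97 and 3.22 in the islets. Sfrp2 was 185-fold lower, resting on 18 islet reads (log2 fold change −7.48, SE 0.42, adjusted p = 5.5e-07, limma). Of its exon bases 16.1% lie opposite Gm26771, whose entry went from 16.5 ± 0.892 to 8.02 ± 2.22 normalized counts, on 23 islet reads. Without the first islet library Sfrp2 was 331-fold lower.

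Sfrp1 and Sfrp2 were both lowest in the second embryonic library, and among the islets highest in the first islet library and lowest in the third islet library. The mesenchyme marker share was lowest in that embryonic library as well (0.442% against 0.570 and 0.567%), and its part in both falls was not tested. Of the 33 members lower in the islets, 12 were lowest in that embryonic library, 36.4% against 35.6% of all lower genes, and 13 were highest there. An order falling from the first islet library through the second to the third was seen in 9 of the 33, 27.3% against 19.7% of all lower genes. Sfrp1 made up 66.8% ± 3.09 and Sfrp2 32.2% ± 3.45 of the summed Sfrp level per kb in the embryonic pancreas. In the islets Sfrp5 made up 96.6, 98.0 and 98.8%, against 0.666, 1.35 and 0.801% in the embryonic libraries. The summed Sfrp level per kb was 2.50-fold lower in the islets, 681 ± 32.2 against 1702 ± 279 normalized counts (exact permutation p = 0.1, the smallest possible). Sfrp4 had 20 reads in the embryonic libraries and 3 in the islets, a ratio of 6.03 with an exact 95% counting interval from 1.76 to 31.3, and was not tested.

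Both Dkk genes that were tested fell, as did 36.6% of all genes tested. Dkk2, which binds Lrp5 and Lrp6, had 836, 795 and 729 normalized counts in the embryonic libraries against 58.2, 36.7 and 47.2 in the islets, a log2 fold change of −4.05 without overlap (SE 0.19, adjusted p = 1.8e-07, limma). Dkk3, a divergent member that does not act on Lrp6 in the usual way, had 377, 328 and 334 normalized counts in the embryonic libraries against 227, 188 and 95.5 in the islets (log2 fold change −1.11, SE 0.29, adjusted p = 7.5e-03, limma). The third islet library was the lowest for Dkk3 by a wide gap. Dkk3 took 32.4% ± 1.12 of the summed Dkk level per kb in embryonic pancreas and 76.5% ± 7.79 in the islets. Dkk1 and Dkk4 stayed under the filter, with at most 5.76 normalized counts in any library. Wif1, which binds Wnts, was low throughout, at 9.61, 8.35 and 7.36 normalized counts in the embryonic libraries against 14.3, 15.9 and 15.0 in the islets. Wif1 passed the filter through the islets alone, and its rise (log2 fold change 0.77, adjusted p = 0.039, limma) was lost under 10 of the 15 alternatives that gave it a value, among them leaving out the first or the third embryonic or any islet library (adjusted p from 0.055 to 0.104).

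In the R-spondin branch Rspo4 rose and the other 3 R-spondins fell, against 36.2% higher and 36.6% lower among all genes tested. Rspo4 (chr2:151842927-151874668) had 5.76, 8.35 and 10.6 normalized counts in the embryonic libraries against 549, 507 and 576 in the islets. Its mean was 66.0-fold higher in the islets, 1548 reads against 27 (log2 fold change 5.91, SE 0.25, adjusted p = 1.0e-07, limma). The antisense gene Rspo4os lies within Rspo4 without sharing its exon bases and had 11 reads in the islets. Rspo3 (chr10:29452416-29535867), an R-spondin of vessel growth, had 361, 418 and 383 normalized counts in the embryonic libraries against 6.59, 3.97 and 1.07 in the islets. Rspo3 was 99.9-fold lower, resting on 11 islet reads (log2 fold change −6.50, SE 0.44, adjusted p = 1.7e-06, limma), with 13.1% of its exon bases opposite Gm48159, which had 3 reads in all. Without the first islet library Rspo3 was 154-fold lower. Rspo1 (chr4:124986430-125009099), known for its part in ovary development, had 139, 241 and 201 normalized counts in the embryonic libraries against 5.49, 0.992 and 1.07 in the islets. Rspo1 was 76.9-fold lower on 7 islet reads (log2 fold change −5.99, SE 0.49, adjusted p = 5.4e-06, limma), and 188-fold lower without the first islet library. Rspo1 and Rspo3 passed the filter through the embryonic libraries alone, so their groups had to differ.

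Rspo2, the remaining R-spondin, had 56.7, 27.1 and 54.8 normalized counts in the embryonic libraries against 19.8, 15.9 and 5.36 in the islets. The second embryonic library lay below the other two and nearer to the islets (log2 fold change −1.78, SE 0.50, adjusted p = 0.010, limma). Rspo4 made up 1.45% ± 0.345 of the summed R-spondin level per kb in embryonic pancreas and 97.8% ± 1.44 in islets (96.3, 97.8 and 99.2%). Rspo3 and Rspo1 made up 53.1% ± 4.10 and 41.5% ± 5.49 in embryonic pancreas and 0.539% ± 0.375 and 0.546% ± 0.548 in the islets. The sum itself was 238 ± 33.4 normalized counts per kb in embryonic pancreas and 235 ± 14.1 in islets (exact permutation p = 0.9). On the scale of reads per kb and 1000000 assigned reads it was 6.86 ± 0.763 and 4.97 ± 0.284, without overlap (exact permutation p = 0.1).

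The receptors and ligases of the branch were mostly lower. Lgr4, the most abundant of the 3 Lgr receptors per kb in both groups, had 4820.0, 4895 and 4163 normalized counts in the embryonic libraries against 1438, 1569.7 and 1558 in the islets, a log2 fold change of −1.60 (SE 0.09, adjusted p = 5.8e-07, limma). Lgr5, a marker of stem cells in the gut, had 141, 137 and 136 normalized counts in the embryonic libraries against 16.5, 18.8 and 11.8 in the islets, a log2 fold change of −3.08 (SE 0.25, adjusted p = 5.7e-06, limma). Lgr6 was at 52.3 ± 6.87 and 65.7 ± 5.86 and was not called (log2 fold change 0.33, adjusted p = 0.21, limma). Lgr4 made up 97.4% ± 0.329 of the Lgr level per kb in embryonic pancreas and 95.9% ± 0.541 in the islets. Rnf43 went from 841 ± 56.1 to 128 ± 8.36 and Znrf3 from 1743 ± 124 to 1019.9 ± 26.8, log2 fold changes of −2.71 and −0.77. Znrf3 thus took 63.2% ± 2.89 of the level per kb of these 2 ligases in embryonic pancreas and 86.9% ± 0.681 in the islets.

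In the cytoplasm and nucleus, all 4 Tcf/Lef factors fell by similar amounts while Axin1 rose a little in normalized counts. Over all genes tested, 36.6% were lower and 36.2% higher. Tcf7, best known from T cells, had 344, 332 and 348 normalized counts in the embryonic libraries against 39.5, 45.6 and 20.4 in the islets, a log2 fold change of −3.32 (SE 0.29, adjusted p = 8.8e-06, limma). Tcf7l2, the factor whose human gene carries variants linked to type 2 diabetes, had 1015, 657 and 1195 normalized counts in the embryonic libraries against 116, 105 and 107 in the islets, a log2 fold change of −3.07 (SE 0.21, adjusted p = 1.8e-06, limma). Lef1 had 145, 115 and 114 in the embryonic libraries against 14.3, 15.9 and 13.9 in the islets, a log2 fold change of −2.995 (SE 0.24, adjusted p = 4.6e-06, limma), with 13.7% of its exon bases opposite Gm43352. For these factors the islet values lay several-fold below the embryonic ones, and Tcf7l2 varied most among embryonic libraries, lowest in the second, which also had the lowest mesenchyme marker share; the part of that share was not tested. Tcf7l1, the member known mainly as a repressor, went from 108 ± 27.0 to 17.0 ± 6.45, a log2 fold change of −2.64.

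The summed Tcf/Lef level per kb was 8.80-fold lower in the islets, 31.9 ± 5.82 against 281 ± 41.5 normalized counts (exact permutation p = 0.1, the smallest possible). Its makeup showed no difference beyond the spread: Tcf7 took 46.9% ± 6.25 in embryonic pancreas and 41.0% ± 9.30 in the islets, and Tcf7l2 took 38.2% ± 5.78 and 40.1% ± 7.72. Exact permutation p-values for the 4 shares ran from 0.3 to 0.8.

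Axin1, the scaffold of the destruction complex, had 1964, 2439.5 and 2037 normalized counts in the embryonic libraries against 2894, 3185 and 3304 in the islets, a rise of 0.55 on the log2 scale (SE 0.10, adjusted p = 1.3e-03, limma). Over the scalings and the tests on recovered reads, that rise ran from 0.30 to 0.66. That range does not cover reads per 1000000 assigned reads, on which the Axin1 values of the groups overlapped. Axin2, a direct target gene of the pathway and part of its negative feedback, went from 1069 ± 157 to 459 ± 42.8, a log2 fold change of −1.21. Axin1 made up 74.3% ± 0.907 of the Axin level per kb in embryonic pancreas and 90.8% ± 0.355 in the islets. The summed Axin level had no stable direction, at 755 ± 94.8 and 900.4 ± 62.2 normalized counts per kb (exact permutation p = 0.2) but 21.7 ± 1.34 and 19.0 ± 0.893 reads per kb and 1000000 assigned reads (exact permutation p = 0.1). Ctnnb1, which encodes beta-catenin and had the highest level per kb of all members, had 29609.5, 35399 and 29227 normalized counts in the embryonic libraries against 20787, 21442 and 21157 in the islets. Ctnnb1 was 1.49-fold lower in the islets (log2 fold change −0.57, SE 0.11, adjusted p = 1.5e-03, limma), and 14.6% of its exon bases lie opposite Ulk4, whose entry was at 472 ± 35.4 and 485 ± 57.9.

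The other genes of the pathway were read from 5 lists of 67 genes, of which 65 were tested: 14 were higher, 37 lower and 14 not called, with a median log2 fold change of −0.36. Of all genes tested, 36.2% were higher and 36.6% lower, with a median of −0.03. Nkd1, Notum and Apcdd1 stand on 2 lists each. Of the 65, 6 passed the filter through the embryonic libraries alone, and these had to differ. Of 12 tested genes of secretion and the extracellular space 2 rose and 9 fell. Wls, which carries Wnts to the cell surface, went from 3919 ± 252 to 10417 ± 1316 normalized counts (log2 fold change 1.40), and Gpc4, a cell surface proteoglycan, from 480.2 ± 119 to 1769 ± 248 (1.90). Another proteoglycan, Gpc3, fell most of all the pathway genes, with 13565, 12763 and 12689.7 normalized counts in the embryonic libraries against 38.4, 37.7 and 19.3 in the islets (log2 fold change −8.69, SE 0.23, adjusted p = 1.3e-08, limma). Notum, the enzyme that strips the lipid from Wnts and a target of the pathway, went from 139 ± 38.7 to 2.84 ± 1.35 (−5.21). Notum had 8 islet reads and passed the filter through the embryonic libraries alone. Of its exon bases 38.1% lie opposite Myadml2os and Notumos. The acyltransferase Porcn, the carrier Wls and the ligand Wnt4 were higher in the islets without overlap, while 77.1% of all genes tested did not overlap. Most genes of the same roles fell, 7 of the 9 tested members among ligands and 9 of the 12 on this list.

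Of 18 cytoplasmic genes 5 rose and 7 fell, while 6 were not called, with a median log2 fold change of −0.08, which is near the 36.2% higher, 36.6% lower and median of −0.03 of all genes tested. Btrc, the ligase subunit that recognizes phosphorylated beta-catenin, and Dvl1, which relays the signal from Frizzled, rose by 1.23 and 0.81 on the log2 scale. Nkd1, an inhibitor that binds Dishevelled and is itself a target gene, went from 998 ± 63.5 to 7.67 ± 3.86 (log2 fold change −6.97). Amer1, which brings Apc to the membrane, went from 4774 ± 351 to 533 ± 46.1 (−3.16). Of 12 nuclear cofactors 3 rose, 6 fell and 3 were not called, with log2 fold changes between −1.32 and 0.66. Among them the Groucho-type corepressor Tle3 and its short relative Tle5, listed under the symbol Aes, rose by 0.61 and 0.66, while Tle2 and the chromatin reader Pygo1 fell by 0.93 and 1.32.

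Of 15 genes of planar polarity and other Wnt receptors 3 rose and 9 fell. Celsr3, an adhesion receptor of axon growth, had 221, 238 and 243 normalized counts in the embryonic libraries against 3179, 3192 and 3413 in the islets, a rise of 3.80 on the log2 scale (SE 0.09, adjusted p = 8.3e-09, limma). The formin Daam1 rose by 1.96 and its paralog Daam2 fell by 3.90. Ptk7, a receptor-like pseudokinase of planar polarity, went from 6982 ± 796 to 340.4 ± 89.9 (log2 fold change −4.38). Of 11 tested genes listed as common targets of the pathway 1 rose, 9 fell and 1 was not called. Of all genes tested, 36.2% were higher and 36.6% lower. Besides Nkd1 and Notum, described above, the fall was steep for Tnfrsf19, a receptor of the tumor necrosis factor family, from 1328 ± 174 to 14.4 ± 7.33 (−6.56). Cd44, an adhesion receptor, rose from 548 ± 61.4 to 2808 ± 295 (2.36). These lists were chosen with earlier results of these data known, and the share of mesenchyme, mesothelium and beta cell markers moved with the groups; its part was not tested.

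**Figure D4:**
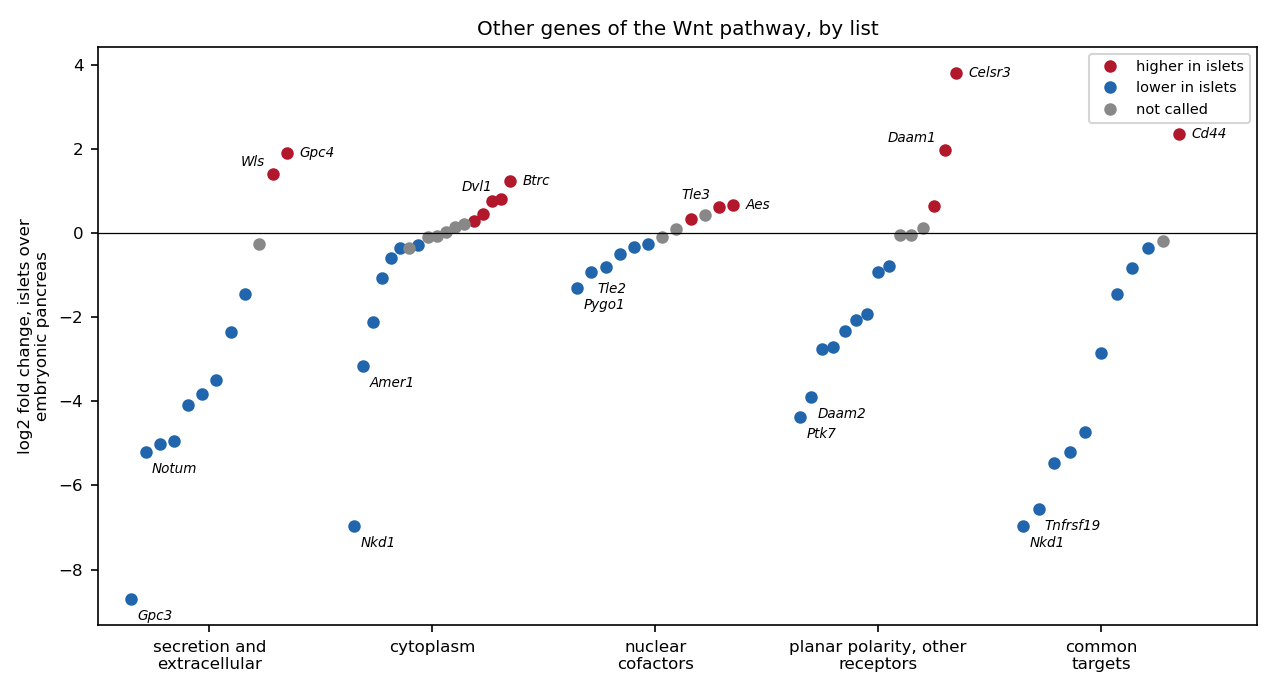
Log2 fold change (adult islets over embryonic pancreas) of the 65 other pathway genes tested, 1 point per gene and list, ordered within each of 5 lists; red is called higher, blue lower and grey not called. Celsr3 is the highest point (3.80) and Gpc3 the lowest (−8.69).

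Promoters were searched because many members fell together and several are known targets of the pathway themselves. Of the 56 members 36 matched a RefSeq promoter (GRCm38.p6, 250 bases before to 50 after a start), some with several starts. The core of the Tcf/Lef motif, searched on both strands as CTTTG followed by a pair of bases that are each A or T, lay in a promoter of 7 of the 36 members (19.4%) and of 18.9% of 27025 genes. It lay in 5 of the 21 members with a promoter that were lower and in 0 of the 4 that were higher. The windows around it in these 5 genes are shown 5′ to 3′ on the gene's strand, with the motif in capitals, and a motif on the opposite strand reads as its reverse complement. Fzd7 and Wnt11 carry it before the gene, 130 and 51 bases before a RefSeq start; Lef1, Tcf7l2 and Wnt5b carry it 147, 14 and 71 bases before an inner start, within an intron.
Fzd7, chr1:59481957-59482083, plus strand: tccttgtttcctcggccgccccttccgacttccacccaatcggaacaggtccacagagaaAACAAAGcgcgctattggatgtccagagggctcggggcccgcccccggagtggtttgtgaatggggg
Wnt11, chr7:98835001-98835111, plus strand: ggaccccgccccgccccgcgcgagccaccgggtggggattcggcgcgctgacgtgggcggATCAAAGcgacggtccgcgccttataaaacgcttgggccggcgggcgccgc
Lef1, chr3:131156087-131156213, plus strand: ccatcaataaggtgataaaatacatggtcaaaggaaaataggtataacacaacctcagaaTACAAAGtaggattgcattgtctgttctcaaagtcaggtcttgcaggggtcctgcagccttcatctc
Tcf7l2, chr19:55895247-55895320, plus strand: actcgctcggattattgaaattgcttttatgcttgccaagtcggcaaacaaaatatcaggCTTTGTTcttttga
Wnt5b, chr6:119449391-119449517, minus strand: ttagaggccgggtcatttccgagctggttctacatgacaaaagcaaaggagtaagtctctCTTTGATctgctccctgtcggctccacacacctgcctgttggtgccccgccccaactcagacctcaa
A match is a run of letters and not evidence of binding, and the share of members with a match was near that of all genes.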

How the data were processed

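RNA from 3 embryonic pancreas and 3 adult islet samples of wild-type mice was purified with RNeasy Micro columns and made into libraries with a TruSeq RNA kit, per the labels' protocols. Per the submitters' processing notes, the tools were DESeq2 (no version), Cufflinks 1.2.1, TopHat 1.3.2 and CASAVA 1.8.2, with build mm10; neither the counter nor its annotation is given in the sources used here. The single table that the authors deposited has 37766 entries, and its library columns hold normalized signal, that is, reads divided by a size factor; 5 entries are summaries of unassigned reads (40.7 to 54.6% of a library) and were left out. Per the file headers, it also gives the authors' log2 fold change, fold ratio, standard error, p-value, adjusted p-value and test score, of which the authors' calls were used only where named.

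All values were whole multiples of 1 step per library within 0.01 reads, which gave back the reads; in the second islet library the step, 0.992, is too near 1 to be told from rounding on its own. The test was limma-trend (limma 3.58.1, R 4.3.3) on log2(value + 1), which understates changes of low genes. It covered genes that reached 10 normalized counts in 3 or more libraries, with 4 residual degrees of freedom and adjustment over 21653 genes. A run on simulated data had few changed genes, equally many in both directions, and known size factors. That run therefore does not test the scaling of these data. Exon lengths, overlaps and coordinates come from GENCODE on GRCm38 (the build mm10), matched for all 56 members, with lengths over the union of exons. Counts per kb, family shares and permutation tests used Python 3.11.15, pandas 2.3.3 and SciPy 1.17.1.

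Members are those whose symbol matches the named families. Within each role the 3 steepest called rises and falls with a mean of at least 100, and the highest level per kb in each group, are given in full; of each pathway list, the 2 steepest in each direction. The members and lists were chosen with earlier results of these data known. Alternatives were upper quartile scaling, quantile normalization, scaling that omits the 20 most abundant genes in either group, a pseudocount of 0.1 or 5, a filter of 50 or none, the replicate number as a block, leaving out each library, edgeR 4.0.16 and DESeq2 1.42.0 on the recovered reads, shares without division by length, and, chosen after the data were seen, family sums per 1000000 assigned reads.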

Additional observations from a re-analysis of the deposited data

How the results depend on the processing

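Over the 16 alternatives to the test, the members called higher numbered 5 to 8 and those called lower 29 to 37, against 6 and 33. With 1 library left out they numbered 5 to 6 and 32 to 34. Other pathway genes called higher numbered 12 to 15 and lower 32 to 45, against 14 and 37, and over all genes 6636 to 8635 were higher and 5982 to 10098 lower. Scaling without the most abundant genes moved the all-gene median log2 fold change from −0.03 to −0.26 and the share of calls that were higher from 49.7 to 41.1%, with 5 members higher and 35 lower. Of the 39 members called, 37 kept their call and direction under all alternatives that gave them a value; Wif1 and Wnt7a lost it under 10 each. Members not called became called 11 times: Fzd5, Fzd6, Fzd8 and Lgr6. Fzd8 changed direction, at −0.019, under scaling without the most abundant genes.

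Among shares within families, that of Lef1 (islets minus embryonic pancreas, in percentage points) turned to −0.000145 without division by length, −0.262 without the third embryonic library and −0.208 without the third islet library (−0.262 to 0.462 with 1 library left out), and that of Tcf7l2 to −1.26 without the second embryonic library and −1.90 without the third islet library (−1.90 to 5.82 with 1 library left out). The ratio of the summed Axin level, islets over embryonic pancreas, turned to 0.876 as reads per kb and 1000000 assigned reads; the cause was not tested. Pathway genes that the text does not name were counted apart, a choice made after their values were seen: of 33 called, 1 changed direction once, and of 14 not called, 10 changed direction under at least 1 alternative.

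Libraries with the same replicate number did not deviate together (correlations 0.0369, 0.0775 and 0.0054), so the numbers were not taken to pair them; with the replicate block, 5 members were higher and 32 lower. Low counts limit Wnt7a, Wif1 and the 13 members that were not tested.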
